A study of Mus musculus with 2 samples.

Results

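The Notch genes examined here were 10 genes chosen by their symbols, the receptors Notch1, Notch2, Notch3 and Notch4, the ligands Jag1, Jag2 and Dll1, the nuclear effector Rbpj and the target genes Hes1 and Hey1. All 10 were found among the 25810 genes with a symbol that were listed for both libraries. The libraries were made from poly(A) RNA of mammary epithelial cells (MECs) of the inguinal glands on lactation day 3, 1 library from wild type (WT) mice and 1 from Igfbp7-/- mice, which lack the secreted insulin-like growth factor binding protein 7. Before RNA extraction the preparation had been depleted with magnetic beads of leukocytes (CD45), endothelial cells (CD31) and erythroid cells (Ter119), although the sample labels name CD35 in the place of CD31. The labels give C57BL/6 as the genetic background of both libraries, whereas the methods of the study state that the knockout was made on CD1 mice. The deletion was carried in the germline and was therefore present in every cell of the animal, and the age, parity and number of animals behind each library were not given in the sources used here. Igfbp7 itself was counted 5224 times in the WT library against 37 times in the knockout, which matched the labels.

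Notch receptors are transmembrane proteins that are switched on by ligands of the Delta and Jagged families on a neighbouring cell. Binding lets an ADAM protease and then the gamma-secretase complex cut the receptor, and the freed intracellular part moves to the nucleus, where it joins the DNA-binding protein RBPJ and Mastermind coactivators and turns a repressor complex into an activator. The best known target genes encode the HES and HEY family of basic helix-loop-helix repressors. In the mammary gland the pathway is known for guiding cells to the luminal fate, and in blood vessels for the choice between tip and stalk cells. Vessel cells also carry Notch4, Dll4 and Hey1, and the muscle cells and pericytes around them carry Notch3.

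Expression is given as RPM, the reads of a gene set against all mapped reads of its library, and the ratio of Igfbp7-/- to WT was taken on the log2 scale with 0.1 RPM added to both values. A gene was counted as higher or lower at a ratio of at least 1.5 times in either direction, out of 14026 genes that reached 1 RPM in either library. Each genotype had 1 library, which leaves no measure of the spread between animals, and no test was made. The intervals are exact 95% intervals on read pairs and cover counting error only. The libraries held 34327854 mapped reads in WT and 35016847 in Igfbp7-/-, of which 82.3% and 72.3% lay on the listed genes, and 1 read was worth 0.0291 and 0.0286 RPM. Over all tested genes the median log2 ratio was 0.03, with quartiles of -0.52 and 0.51. Scaling to the reads on listed genes moved this median up by 0.19, and leaving the 20 most abundant genes out of the total moved it down by 0.15.

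Of the 10 Notch genes, 2 passed 1.5 times on the higher side in Igfbp7-/- MECs, 4 on the lower side and 4 stayed inside that range. The share of higher genes, 20%, stood beside 21.4% of all tested genes, and the share of lower genes, 40%, beside 23.0%. The median log2 ratio of the 10 genes was -0.18. Hes1 had the highest ratio and Dll1 the lowest, the latter with an interval that overlapped that of Jag2, and the receptors differed among themselves, with Notch2 higher, Notch3 and Notch4 lower and Notch1 nearly level. All 10 genes had at least 1 RPM in both libraries.

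**Figure D1:**
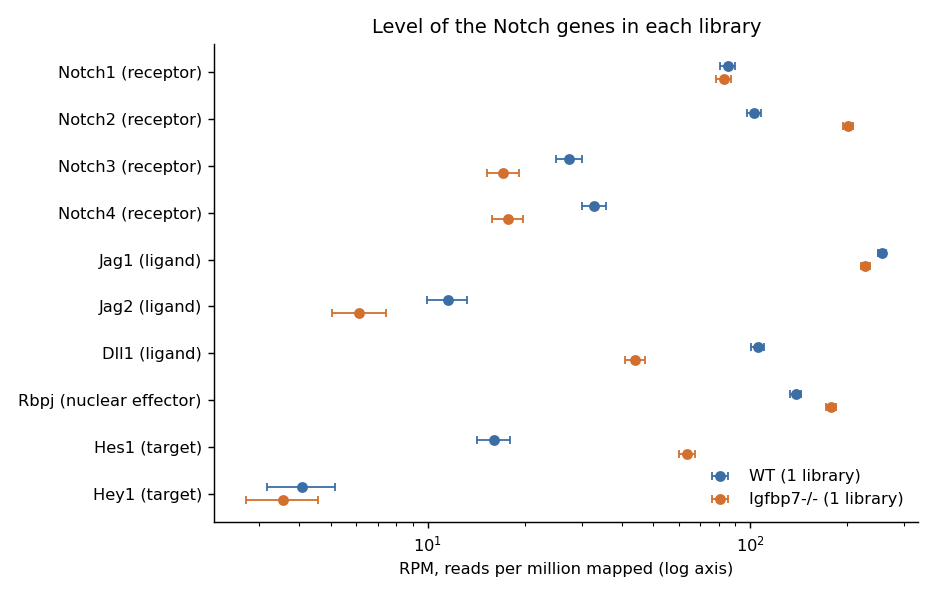
Level of each Notch gene in RPM (log axis) in the WT library and in the Igfbp7-/- library, with the exact 95% Poisson interval of its read pairs as the bar. The intervals of the libraries lie apart for every gene except Notch1 and Hey1, and the widest gap is that of Hes1, at 16.1 RPM in WT against 63.7 RPM in Igfbp7-/-.

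The 10 genes lie on 6 chromosomes in the NCBIM37 (mm9) build of the mouse genome, the build named in the processing notes of the submitters. Notch1 is at chr2:26313423-26372183, Notch2 at chr3:97817461-97954290, Notch3 at chr17:32257765-32303825 and Notch4 at chr17:34701213-34725448. Jag1 is at chr2:136907192-136942380, Jag2 at chr12:114146801-114167706 and Dll1 at chr17:15504318-15513836. Rbpj is at chr5:53947018-54048684, Hes1 at chr16:30064470-30067882 and Hey1 at chr3:8663362-8667039. In the GENCODE annotation of that build the longest transcripts of the receptors have 30 to 34 exons, while that of Hes1 has 4 and that of Hey1 has 5.

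RBPJ binds DNA at a short core that reads TGGGAA, often within GTGGGAA. The region from 250 bases before to 50 bases after each start annotated in RefSeq was therefore searched for these letters on both strands. Windows from RefSeq matched 8 of the 10 genes, all but Hes1 and Hey1, and each was located in NCBIM37 by an exact match at 1 position. Rbpj and Dll1 had 2 windows each, for different start sites, and of the others each had 1. The windows of Rbpj and Notch1 lie wholly inside the gene positions given above, so the outer starts of these genes were not searched. The core was found in the window of 1 of the 8 genes, Rbpj, and the longer form, which contains the core, in none. Among all 32851 RefSeq windows of the same length, 25.6% held the core and 6.38% the longer form. In the other Notch genes described further on, 17 of the 49 genes with a window held the core and 8 the longer form. A gene was counted if any of its windows held a match, whereas the shares of all windows count single windows. The gene counts and the window shares are therefore not directly comparable. The windows of Rbpj, Notch2 and Dll1 are shown because Rbpj is the DNA-binding partner and has the matches, and because Notch2 is the receptor counted as higher and Dll1 has the most reads of the ligands counted as lower. Capitals mark the core on either strand.
Rbpj, plus strand, chr5:53981335-53981634: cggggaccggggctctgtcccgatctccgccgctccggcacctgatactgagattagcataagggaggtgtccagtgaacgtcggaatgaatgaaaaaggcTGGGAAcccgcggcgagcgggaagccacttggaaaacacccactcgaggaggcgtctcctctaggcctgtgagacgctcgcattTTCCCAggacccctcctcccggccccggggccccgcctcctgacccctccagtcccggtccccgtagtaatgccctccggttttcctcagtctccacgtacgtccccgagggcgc
Notch2, plus strand, chr3:97817211-97817510: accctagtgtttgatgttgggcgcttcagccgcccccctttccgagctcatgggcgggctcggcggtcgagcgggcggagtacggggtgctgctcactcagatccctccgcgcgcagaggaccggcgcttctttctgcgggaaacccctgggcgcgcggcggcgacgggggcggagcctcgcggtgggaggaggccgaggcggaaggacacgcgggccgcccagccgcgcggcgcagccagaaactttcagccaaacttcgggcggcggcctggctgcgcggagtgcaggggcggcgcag
Dll1, minus strand, chr17:15513847-15514146: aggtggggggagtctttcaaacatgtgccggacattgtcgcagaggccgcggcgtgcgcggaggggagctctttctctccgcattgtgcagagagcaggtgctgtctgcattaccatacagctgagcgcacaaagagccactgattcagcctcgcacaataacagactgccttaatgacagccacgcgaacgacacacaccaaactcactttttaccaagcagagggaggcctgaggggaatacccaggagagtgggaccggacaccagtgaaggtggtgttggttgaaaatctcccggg
In the Rbpj window the core began 149 bases before the start site on the strand of the gene and again 65 bases before it on the opposite strand. The other Rbpj window, not shown, overlaps this one and holds the same second match. The presence or absence of these letters is a description of the sequence and was not linked to binding in these cells.

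Among the receptors, Notch2 had 3531 WT reads (102.9 RPM) against 7046 Igfbp7-/- reads (201.2 RPM). Its level in Igfbp7-/- was 1.96 times that in WT, a log2 ratio of 0.97 (95% interval 0.88 to 1.05), and 89.8% of the tested genes had a lower ratio. Notch2 is the receptor best known for its role in bile duct, kidney and marginal zone B cell formation and is also present in luminal mammary cells. Notch1, the founding member of the family, had 2924 WT reads (85.2 RPM) against 2900 Igfbp7-/- reads (82.8 RPM). Its log2 ratio of -0.04 (-0.15 to 0.07) lay close to the median of all genes, and its interval included a ratio of 1.

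Notch3 and Notch4 were lower in Igfbp7-/-. Notch4, which is found mainly in endothelial cells and was first known as an insertion site of the mouse mammary tumour virus, had 1127 WT reads (32.8 RPM) against 621 Igfbp7-/- reads (17.7 RPM). The log2 ratio was -0.88 (-1.09 to -0.69), so its whole interval lay past 1.5 times. Notch3, the receptor of vascular smooth muscle cells and pericytes that is also expressed by luminal progenitors, had 942 WT reads (27.4 RPM) against 599 Igfbp7-/- reads (17.1 RPM). Its log2 ratio of -0.68 had an interval of -0.89 to -0.47, which reached inside 1.5 times. The 4 receptors thus gave 1 higher, 2 lower and 1 level transcript, and their summed RPM was 248.3 in WT and 318.9 in Igfbp7-/-. In bulk RNA a smaller number of cells of a type and less RNA in each of those cells cannot be told apart.

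The ligand transcripts were lower or level in Igfbp7-/-. Dll1, a Delta ligand carried by part of the basal mammary cells, had 3630 WT reads (105.7 RPM) against 1539 Igfbp7-/- reads (43.95 RPM). It was 2.40 times higher in WT, a log2 ratio of -1.26 (-1.39 to -1.14), and 9.91% of the tested genes had a lower ratio. Jag2, a Jagged ligand of epithelia, had 396 WT reads (11.5 RPM) against 215 Igfbp7-/- reads (6.14 RPM). Its log2 ratio was -0.90, and its interval of -1.26 to -0.56 just reached inside 1.5 times. Jag1, the Jagged ligand of widest expression, was the most abundant of the 10 genes in both libraries, with 8821 WT reads (257.0 RPM) against 7965 Igfbp7-/- reads (227.5 RPM). Its log2 ratio was -0.18 (-0.24 to -0.11), a small difference that lay outside counting error but well within 1.5 times. With scaling to the reads on listed genes the log2 ratio of Jag1 was 0.01. The summed RPM of the 3 ligands was 374.2 in WT and 277.6 in Igfbp7-/-.

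Rbpj, which encodes the DNA-binding protein shared by all Notch receptors, had 4757 WT reads (138.6 RPM) against 6223 Igfbp7-/- reads (177.7 RPM). The log2 ratio was 0.36 (0.28 to 0.44), or 1.28 times, which did not reach 1.5 times. Rbpj-like sequences occur elsewhere in the mouse genome as processed copies, and since the sources used here do not state how reads that map to several places were treated, its count is less certain than those of the receptors.

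The target genes Hes1 and Hey1 differed in their ratios. Hes1, a repressor that holds back differentiation in many tissues, had 551 WT reads (16.1 RPM) against 2229 Igfbp7-/- reads (63.7 RPM). Its level in Igfbp7-/- was 3.95 times that in WT, a log2 ratio of 1.98 (1.79 to 2.18), and 98.3% of the tested genes had a lower ratio. Hey1, a related repressor best known in vessels and heart, was the least abundant of the 10 genes in RPM, with 140 WT reads (4.08 RPM) against 125 Igfbp7-/- reads (3.57 RPM). Its log2 ratio was -0.19, and its wide interval of -0.70 to 0.33 included a ratio of 1 as well as a fall past 1.5 times, so a difference of that size could not be resolved at this depth. The intervals of Hes1 and Hey1 did not overlap.

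**Figure D2:**
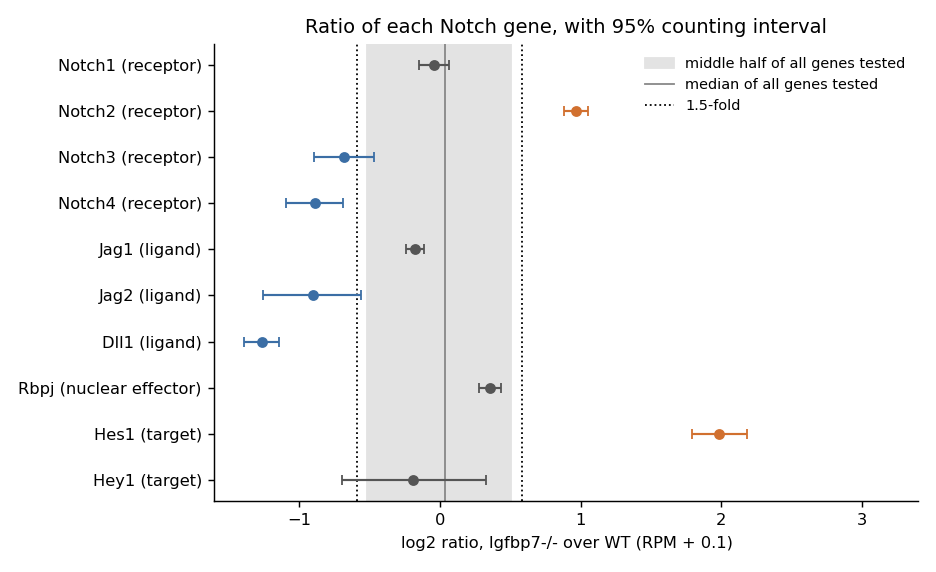
Log2 ratio of Igfbp7-/- to WT for each Notch gene (points) with its 95% counting interval (bars), coloured where the ratio passes 1.5 times (dotted lines). The grey band spans the quartiles of all tested genes, -0.52 to 0.51, and Notch2, Notch4, Dll1 and Hes1 are the genes whose whole interval lies past 1.5 times.

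Levels of different genes were compared per length, by RPKM, the RPM divided by the gene length in kilobases. The gene lengths behind the deposited RPKM ran from 1487 bp for Hes1 to 10506 bp for Notch2. In WT the order was Jag1 (48.5 RPKM), Dll1 (30.7), Rbpj (25.01), Hes1 (10.8), Notch2 (9.79), Notch1 (8.97), Notch4 (4.97), Notch3 (3.45), Jag2 (2.85) and Hey1 (1.84). The counting intervals of neighbours overlapped between Hes1 and Notch2, between Notch2 and Notch1 and between Notch3 and Jag2. In Igfbp7-/- the order was Jag1 (42.9 RPKM), Hes1 (42.8), Rbpj (32.1), Notch2 (19.2), Dll1 (12.8), Notch1 (8.72), Notch4 (2.69), Notch3 (2.15), Hey1 (1.61) and Jag2 (1.51). There the neighbours with overlapping intervals were Jag1 and Hes1, Notch4 and Notch3, Notch3 and Hey1, and Hey1 and Jag2. Hes1 thus stood at the level of Notch2 in WT and in Igfbp7-/- at the level of Jag1, whereas Dll1 passed from the second to the fifth place. In WT 70.9% of the tested genes had a lower RPKM than Hes1, and in Igfbp7-/- 92.7% did.

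The make-up of the receptor and ligand transcripts was compared within each library, since such shares do not depend on how a library is scaled. Of the RPKM summed over the 4 receptors, 27.2 in WT and 32.7 in Igfbp7-/-, Notch2 made up 36.0% in WT and 58.5% in Igfbp7-/-. The share of Notch1 was 33.0% and 26.7%, that of Notch4 18.3% and 8.21% and that of Notch3 12.7% and 6.58%. Counted as read pairs without regard to length, Notch2 held 41.4% (exact binomial 95% interval 39.9 to 42.9%) of the receptor pairs in WT and 63.1% (61.8 to 64.4%) in Igfbp7-/-. The RPKM of Notch2 was 1.09 times that of Notch1 in WT and 2.196 times in Igfbp7-/-.

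The summed RPKM of the ligands Jag1, Jag2 and Dll1 was 82.1 in WT and 57.2 in Igfbp7-/-. Jag1 made up 59.1% of it in WT and 75.05% in Igfbp7-/-, while Dll1 made up 37.4% and 22.3%. In read pairs Dll1 held 28.3% (27.2 to 29.4%) of the ligand pairs in WT and 15.8% (14.8 to 16.9%) in Igfbp7-/-. The RPKM of Hes1 was 5.86 times that of Hey1 in WT and 26.6 times in Igfbp7-/-. Receptors and ligands were therefore both made up in larger part of their most abundant member in the Igfbp7-/- library.

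**Figure D3:**
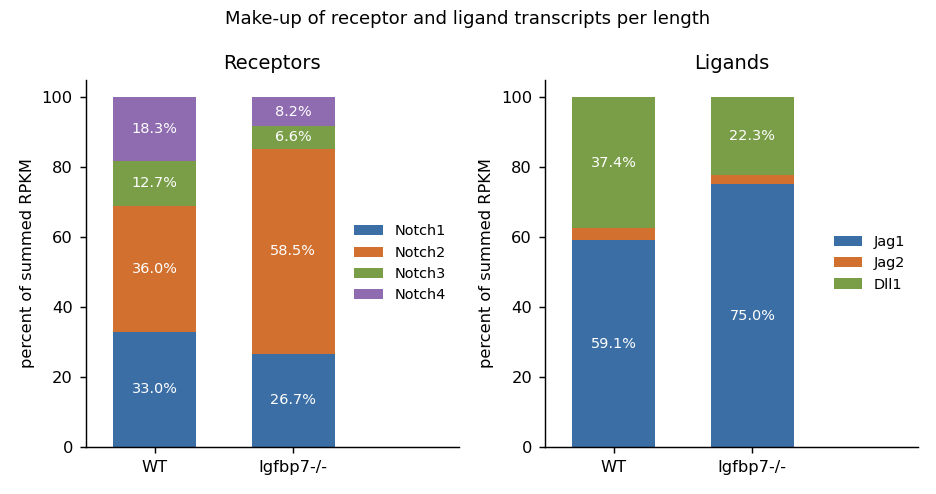
Percent of the summed RPKM held by each receptor (left) and each of the ligands Jag1, Jag2 and Dll1 (right) in the WT and the Igfbp7-/- library, with bars stacked to 100%. Notch2 takes 36.0% of the receptor bar in WT and 58.5% in Igfbp7-/-, and Dll1 37.4% and 22.3% of the ligand bar.

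The rest of the pathway was described from a list of 61 further genes, of which 54 reached 1 RPM in either library. Of these 54 genes, 15 (27.8%) were higher in Igfbp7-/- by at least 1.5 times and 11 (20.4%) were lower, against 21.4% and 23.0% of all tested genes, and the median log2 ratio was 0.24. With scaling to the reads on listed genes 22 were higher and 8 lower, while of all genes 4463 were then higher and 2712 lower.

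Among 5 further ligands, 3 reached 1 RPM in either library, of which 2 were lower and none higher. Lower calls made up 23.0% of all tested genes and higher calls 21.4%. Dll4, the Delta ligand of arterial and tip endothelial cells, had 381 WT reads (11.1 RPM) against 144 Igfbp7-/- reads (4.11 RPM), a log2 ratio of -1.41 (-1.85 to -1.04). Dlk1, an atypical ligand without the domain that activates receptors, had 46 and 24 reads and an interval that included a ratio of 1. Dll3 had no read in WT and 2 in Igfbp7-/-, and Dner had 4 and none, and at these depths a count of 3 is worth 0.0874 RPM in the WT library and 0.0857 RPM in the other. Dlk2, a relative of Dlk1, had 3.41 and 4.31 RPM and stayed within 1.5 times. Dll1 and Dll4, the activating Delta ligands with reads enough to compare, were thus both lower in Igfbp7-/-.

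Enzymes that put sugars on the receptors were lower in 3 of 5 cases and higher in none. Among all tested genes 23.0% were lower and 21.4% higher. Mfng, a Fringe enzyme that shifts receptors towards Delta ligands, had 4.78 RPM in WT against 1.54 RPM in Igfbp7-/- (log2 ratio -1.57, -2.32 to -0.99). Rfng (10.02 and 6.25 RPM) and Poglut1, the O-glucosyltransferase (17.6 and 11.2 RPM), were lower by -0.67 and -0.64 on the log2 scale, with intervals that reached inside 1.5 times. Lfng, the Fringe with the best known part in mammary epithelium, had 4.31 RPM in WT against 4.51 RPM in Igfbp7-/-. Pofut1 differed in the other direction within 1.5 times (12.1 RPM in WT against 16.8 RPM in Igfbp7-/-, log2 ratio 0.47, 0.21 to 0.74).

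Of 9 proteases that cut the receptors, 7 stayed within 1.5 times. The share past it was 11.1% in each direction, against 21.4% higher and 23.0% lower among all tested genes. Adam10, which cuts ligand-bound receptors, had 65.3 RPM in WT against 69.7 RPM in Igfbp7-/-, and the log2 ratio of Furin, which cuts the receptor on its way to the surface, was -0.45. Within gamma-secretase Ncstn was higher (26.6 RPM in WT against 44.7 RPM in Igfbp7-/-, log2 ratio 0.74) and Psen2 was lower (7.98 and 4.57 RPM, -0.79). The intervals of both, 0.58 to 0.92 for Ncstn and -1.22 to -0.40 for Psen2, reached inside 1.5 times.

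Of 13 tested genes for ubiquitin ligases and endocytosis, 3 were higher and 3 were lower, 23.1% in each direction and close to the 21.4% and 23.0% of all tested genes. Numb, which restrains Notch by sending the receptor into the cell, was higher in Igfbp7-/- (18.2 RPM in WT against 30.4 RPM in Igfbp7-/-, log2 ratio 0.73), and its relative Numbl was lower (34.2 and 17.9 RPM, -0.93). The interval of Numb, 0.53 to 0.94, reached inside 1.5 times. Among the ligases that act on ligands, Mib2 was higher on few reads (46 in WT and 132 in Igfbp7-/-), and Mib1 just missed 1.5 times with a log2 ratio of 0.58 (19.1 and 28.6 RPM). The ligase Neurl1b was lower (7.92 and 3.26 RPM, log2 ratio -1.26) and Neurl1a higher (20 and 53 reads). The interval of Neurl1a, 0.31 to 2.62, reached inside 1.5 times. Dtx3l, a Deltex relative that works with PARP9 in the interferon and DNA damage responses, was lower as well, with 163.2 RPM in WT against 60.1 RPM in Igfbp7-/- (log2 ratio -1.44, -1.54 to -1.34).

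Of 8 nuclear coactivators of RBPJ, 4 (50%) were higher and 1 (12.5%) was lower, against 21.4% and 23.0% of all tested genes. Among the higher ones, the intervals of Maml3 and Ep300 reached inside 1.5 times. The histone acetyltransferase genes Crebbp (89.3 RPM in WT against 172.6 RPM in Igfbp7-/-, log2 ratio 0.95) and Kat2b (22.96 and 44.3 RPM, 0.95) were higher, as were Maml3 (7.98 and 13.3 RPM, 0.73) and Ep300 (70.9 and 107.5 RPM, 0.60), and Maml2 was lower (147.4 and 90.8 RPM, -0.70). Of 12 tested corepressor genes, grouped here with the RBPJ relative Rbpjl, 5 (41.7%) were higher and none was lower, against the same shares of all tested genes, with a median log2 ratio of 0.28. Spen, a large protein that binds RBPJ, had 58.6 RPM in WT against 106.5 RPM in Igfbp7-/- (log2 ratio 0.86, 0.75 to 0.97). Ncor1 (101.7 and 158.1 RPM, 0.64) passed 1.5 times with an interval that reached inside it. Rbpjl (29 and 87 reads) and Tle2 (45 and 79 reads) rested on few reads. The interval of Rbpjl, 0.65 to 2.48, lay wholly past 1.5 times, while that of Tle2, -0.005 to 1.58, included a ratio of 1.

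Of 4 further target genes that reached 1 RPM in either library, 2 were higher and 1 was lower. These shares, 50% and 25%, stood beside 21.4% and 23.0% of all tested genes. Heyl, a Hey family gene, had 183 WT reads (5.33 RPM) against 392 Igfbp7-/- reads (11.2 RPM) (log2 ratio 1.06, 0.70 to 1.44). Myc, which Notch and many other signals can switch on, had 107.6 RPM in WT against 335.6 RPM in Igfbp7-/- (1.64). Nrarp, a feedback inhibitor of the Notch complex, was lower on few reads (88 in WT and 44 in Igfbp7-/-, -0.97), and Ccnd1 had a log2 ratio of -0.44. Hes5, Hes7 and Hey2 stayed below 1 RPM in both libraries, with at most 22 reads each.

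**Figure D4:**
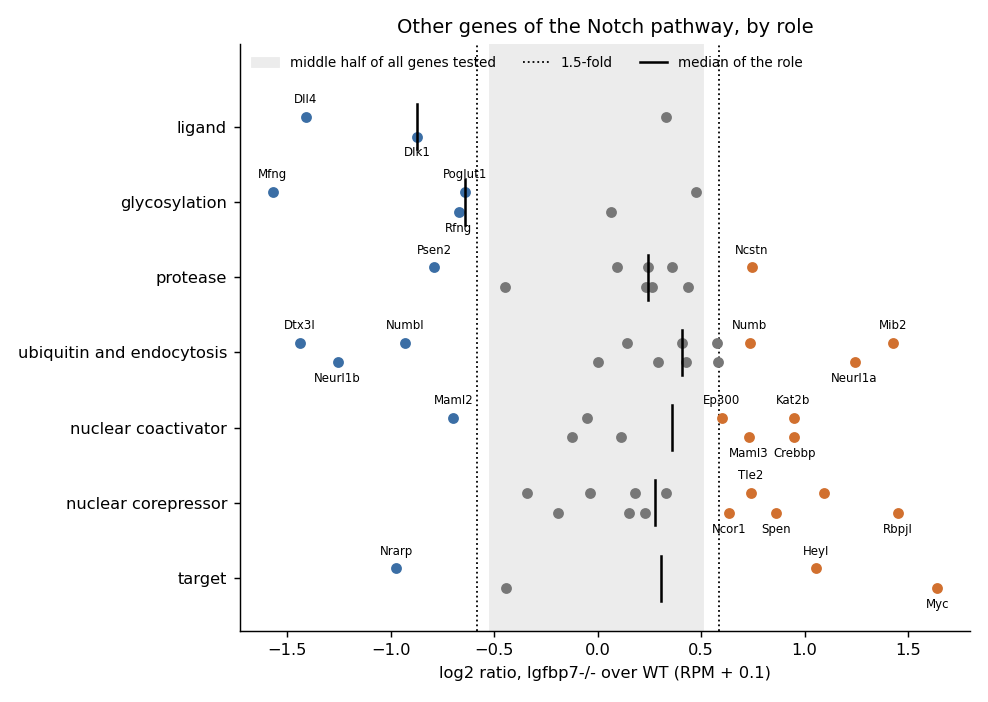
Log2 ratio of Igfbp7-/- to WT for the 54 further Notch pathway genes that reached 1 RPM in either library, by role, with the median of each role as a vertical bar and genes past 1.5 times (dotted lines) in colour, most of them named. Ligands and glycosylation enzymes past the lines lie on the lower side, and the 5 corepressor genes past them lie on the higher side.

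Markers of the cell types that such a preparation may hold differed between the libraries, and their part in the Notch values was not tested. The counts below stand beside 21.4% higher and 23.0% lower among all tested genes. Of 9 endothelial markers, 8 were lower in Igfbp7-/- and none was higher, with a median log2 ratio of -1.63 beside -0.88 for Notch4, -1.41 for Dll4 and -0.19 for Hey1. The summed RPM of this list was 1462 in WT and 470.1 in Igfbp7-/-. Pecam1, which encodes the depleted CD31, had 322.5 RPM in WT against 88.9 RPM in Igfbp7-/-, and Cdh5, the cadherin of endothelial cells, had 583.7 and 183.5 RPM, so RNA of this kind was present in both libraries. Of 6 pericyte markers, 4 were lower, with a median of -0.77 beside -0.68 for Notch3 and summed levels of 155.7 and 128.9 RPM. Pdgfrb and Abcc9 of this list stayed within 1.5 times, with log2 ratios of 0.34 and 0.57. Of 7 leukocyte markers all 7 were lower, and Ptprc, which encodes CD45, had 43.5 RPM in WT against 18.1 RPM in Igfbp7-/-. The summed RPM of the leukocyte list was 657.1 in WT and 117.4 in Igfbp7-/-.

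Markers of the epithelial layers differed in direction. Of 7 basal and myoepithelial markers, 6 were lower and none was higher, with a median log2 ratio of -1.36 beside -1.26 for Dll1 and -0.90 for Jag2, and with summed levels of 3141 RPM in WT against 1052 RPM in Igfbp7-/-. Acta2 (1052 and 226.7 RPM), Myh11 (883.0 and 343.5 RPM) and Krt5 (579.3 and 182.3 RPM) were the most abundant of them. Of 5 general luminal markers, 4 were higher and none was lower, with a median of 1.47 beside 1.98 for Hes1 and 0.97 for Notch2, and with sums of 1007 and 2809 RPM. All 5 hormone-sensing luminal markers were higher, with a median of 1.76, although their summed level was low (40.5 and 133.5 RPM). Prlr had the median ratio and made up most of these sums, with 30.2 RPM in WT and 102.6 RPM in Igfbp7-/-. Of 5 luminal progenitor markers, 2 were higher and 1 was lower, with a median of 0.53 beside -0.68 for Notch3. Their sums were 617.6 and 918.7 RPM. Of 6 alveolar markers, 5 were lower and none was higher, with a median of -1.32 beside -1.26 for Dll1. Their summed level of 110331 RPM in WT against 41383 RPM in Igfbp7-/- was the largest of all lists.

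In the remaining lists, 4 of 6 fibroblast markers were lower, with sums of 9060 and 4582 RPM. Their median log2 ratio was -0.79, beside -0.90 for Jag2. None of 4 tested erythroid markers passed 1.5 times (sums of 1066 and 1243 RPM). Of 3 tested adipocyte markers, 2 were lower and 1 was higher, with sums of 19.4 and 19.0 RPM. None of the endothelial, pericyte, basal, luminal, fibroblast or leukocyte markers was at 0 in either library.

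**Figure D5:**
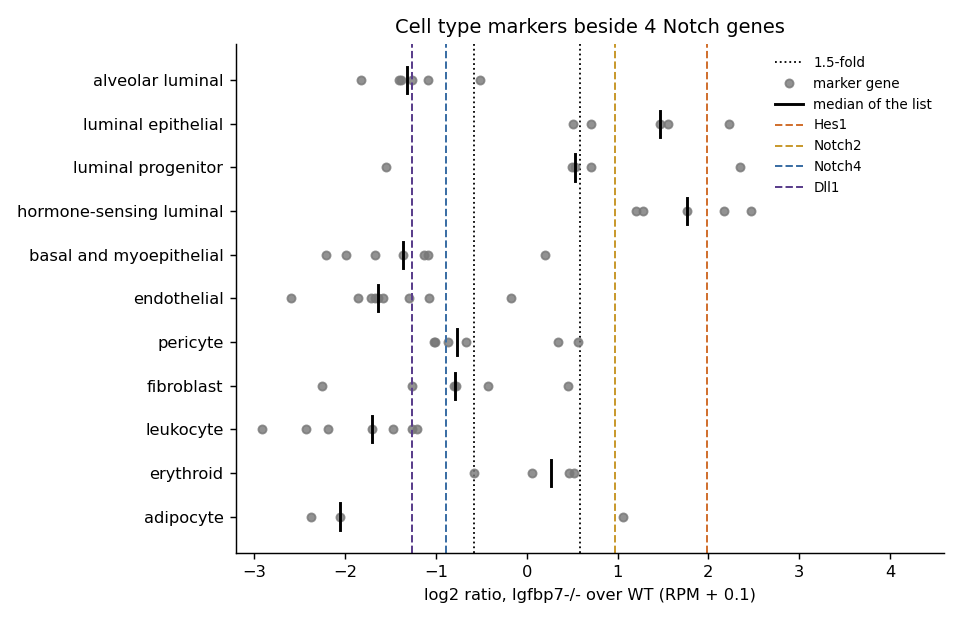
Log2 ratio of Igfbp7-/- to WT for each marker gene (grey points), by cell type list, with the median of each list as a vertical bar and the ratios of Hes1 (1.98), Notch2 (0.97), Notch4 (-0.88) and Dll1 (-1.26) as dashed lines. Hormone-sensing and general luminal lists have the highest medians, 1.76 and 1.47, and the endothelial, basal and leukocyte lists have medians of -1.63, -1.36 and -1.70.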

How the data were processed

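The files held 1 library of lactation day 3 MECs for each genotype. Per the methods of the study, paired-end reads of 35 and 75 bp from a SOLiD sequencer were mapped with a Bowtie pipeline in GeneSifter 4.0 with at most 3 mismatches, and mitochondrial, ribosomal and small nuclear RNA were filtered out, although rows of ribosomal RNA in the files held 2.95% and 3.15% of the mapped reads. The methods name a human reference, while the processing notes of the submitters name mm9, Bowtie 0.12.3 and SAMtools 0.1.15. The gene annotation, the use of strand and the treatment of reads with several matches were not given in the sources used here. The authors deposited a read count for each gene. RPM, also deposited, relates that count to the total of mapped reads. RPKM as deposited further relates it to gene length in kilobases. RPM falls for every gene where more reads lie outside the listed genes or on a few abundant ones. The 50 rows without a symbol, with 13989 reads in WT and 16958 in Igfbp7-/-, were left out.

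Genes were matched by symbol and ratios were calculated from RPM plus 0.1. Low counts were mostly even (75.8% and 74.1% of those from 1 to 20), so intervals were computed on read pairs, with counts divided by 2. Clopper-Pearson intervals were used for ratios and shares and exact Poisson intervals for levels. Ratio intervals leave out the added 0.1 RPM. No test between genotypes was made. Promoter windows came from RefSeq (GRCm38.p6) and were placed in NCBIM37 by sequence. The calls and intervals were tried on simulated counts that held counting error only, so spread between animals was not covered. The alternatives were other pseudocounts, minima, scalings and thresholds. The Notch genes, the 61 further genes and the marker lists were chosen with earlier results of these data known. Named were the 10 Notch genes, Igfbp7, up to 4 genes past 1.5 times in each role, genes without reads, and the most abundant or defining markers. Dll3, Dner, Dlk2, Numb, Numbl, Ep300, Ncor1, Lfng, Pofut1, Adam10, Furin, Mib1 and Ccnd1 were added after their values were seen. So were the targets below 1 RPM. Some genes that the rule or the lists cover are not reported here. Python 3.11.15 with numpy 2.4.6, scipy 1.17.1 and pandas 2.3.3 was used, with the scaling factors of edgeR 4.0.16 and DESeq2 1.42.0 in R 4.3.3.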

Additional observations from a re-analysis of the deposited data

How the results depend on the processing

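Each Notch gene was recomputed under 12 alternatives. Hes1 and Dll1 kept their call in all 12, and so did Notch1, Jag1 and Rbpj, which stayed within 1.5 times. Notch2, Notch4 and Jag2 lost their call only at a threshold of 2 times. Notch3 lost it there and with scaling to the reads on listed genes, where its log2 ratio was -0.49. Hey1 was not tested at a minimum of 10 RPM. The log2 ratio of Hes1 lay between 1.84 and 2.17 and that of Dll1 between -1.40 and -1.08. No called ratio changed sign. At a threshold of 2 times 1 Notch gene was higher and 1 lower, with 6 and 4 of the further Notch genes and 1352 and 1936 of all genes. Requiring the whole counting interval past 1.5 times left 2 higher and 2 lower Notch genes, and 8 higher and 6 lower further genes. The same was not counted over all genes. With a minimum of 10 RPM 6 further genes were lower, and 1696 of all genes were higher and 1672 lower. Without a minimum 4741 and 5279 of all genes were. The share of higher among all calls was 48.2%, 62.2% with scaling to listed genes and 37.4% without the 20 most abundant genes. For the further Notch genes it was 57.7% and, scaled to listed genes, 73.3%. No paired analysis was possible because each genotype had 1 library, and for the same reason no library could be left out.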

Other observations

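Some genes near the Notch pathway were looked at after the values above had been seen, and are given as values. Egfl7, a secreted protein of endothelial cells that can bind Notch receptors, had 507 WT reads (14.8 RPM) against 104 Igfbp7-/- reads (2.97 RPM), which gave a log2 ratio of -2.28 (95% interval -2.78 to -1.88). The secreted microfibril genes Mfap2 (3.26 and 1.37 RPM) and Mfap5 (50.9 and 69.6 RPM) differed in opposite directions, with log2 ratios of -1.19 and 0.45, of which that of Mfap5 stayed within 1.5 times. The interval of Mfap2, -2.01 to -0.54, reached inside 1.5 times. The Id genes, helix-loop-helix proteins that act beside the Hes family, also differed among themselves. Id3 was higher in Igfbp7-/- (7.31 against 15.4 RPM, log2 ratio 1.06) and Id4, a gene of basal mammary cells, was lower (8.86 and 3.03 RPM, -1.52), while Id1 and Id2 had log2 ratios of -0.15 and 0.02. Hes6, a Hes family gene that does not depend on Notch in many tissues, had 64 reads in WT and 76 in Igfbp7-/-, and Hes2 and Hes3 had at most 4 reads in either library.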
